A study of Mus musculus with 18 samples.

Results

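The genes described here are 10 that cells use to read out and restrain Ras/MAPK signalling and were followed through every table of a mouse glioma study: Spry1, Spry2, Spry4, Spred1, Spred2, Dusp4, Dusp6, Etv1, Etv4 and Etv5. They were chosen by name, and all 10 of 10 were found among 35869 rows in the Ras tumour table, 35869 in the line table, 18268 in the CD11b table, 28692 in the 10x table and 28474 in the Drop-seq table. The study measured 16 bulk RNA libraries and 2 single-cell libraries, all from Boy/J mice or cells taken from their gliomas. Ras tumours were driven by HRasV12 together with a dominant negative p53, and PDGFB tumours by PDGFB. PLX3397 is an oral inhibitor of CSF1R, the receptor that macrophages need for survival, and it also inhibits KIT and FLT3.

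The groups were as follows. Ras-driven tumours came from 4 mice dosed with PLX3397 and from 4 vehicle mice, which the labels also call untreated. Dosing was daily by gavage at 100 mg/kg, begun 7 days after implantation and kept up until the mice were moribund. CD11b-positive cells, a bead-selected myeloid fraction, came from PDGFB-driven tumours after 3 days of PLX3397 (2 libraries) or vehicle (1 library), begun on day 14. Cultured lines came from Ras tumours (2 lines) and from PDGF tumours (3 lines). The Ras lines grew with EGF and FGF at 20 ng/mL, and the PDGF lines with EGF, FGF, PDGFAA and PDGFBB at 20 ng/mL in another base medium, so driver and medium cannot be told apart. One untreated Ras tumour library was made by 10x and one by Drop-seq. Where the labels do not state separate mice or cultures, p-values measure only the spread between these libraries.

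As background, growth factor receptors activate Ras, which passes the signal through RAF and MEK to the kinases ERK1 and ERK2. Active ERK switches on genes that limit it again. Sprouty proteins (Spry1, Spry2, Spry4) and the related Spred proteins (Spred1, Spred2) act between receptor and RAF. Spred1 works by bringing the Ras inactivator neurofibromin to the membrane. Dusp6 removes the activating phosphates from ERK in the cytoplasm, and Dusp4 does so in the nucleus. Etv1, Etv4 and Etv5 are the PEA3 family of ETS transcription factors, whose mRNAs depend on ERK activity in many tissues and are held down by the repressor Capicua until ERK inactivates it.

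The bases before the start sites of Dusp6 and Etv5 are shown because theirs were the members' windows that held the letters TGAATG. These letters begin some forms of Capicua's binding octamer. Of the 10 genes, 7 had an entry among RefSeq promoters of build GRCm38.p6, with 9 start sites in all. Each window covers the 250 bases before a start, read 5′ to 3′ on the gene's strand. Capitals mark TGAATG or its reverse complement CATTCA. The Dusp6 window lies at chr10:99262981-99263230 on the plus strand, outside any annotated Dusp6 exon. The Etv5 window lies at chr16:22438369-22438618 on the minus strand, before the downstream of the RefSeq starts, and falls in an intron of the longer transcript.
Dusp6: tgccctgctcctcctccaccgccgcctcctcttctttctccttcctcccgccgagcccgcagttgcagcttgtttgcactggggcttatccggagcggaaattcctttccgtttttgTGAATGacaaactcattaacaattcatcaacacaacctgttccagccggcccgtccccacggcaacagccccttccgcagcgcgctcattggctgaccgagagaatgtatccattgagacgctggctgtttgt
Etv5: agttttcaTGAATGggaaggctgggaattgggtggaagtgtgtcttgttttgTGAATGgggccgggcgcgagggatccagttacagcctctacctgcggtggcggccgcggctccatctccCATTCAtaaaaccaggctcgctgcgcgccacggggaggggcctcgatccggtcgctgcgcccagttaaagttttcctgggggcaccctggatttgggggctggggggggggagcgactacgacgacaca
The Dusp6 window held 1 match and the Etv5 window 3, searching both strands. TGAATG or CATTCA occurred in 10.9% of all 32851 RefSeq windows of this length. The longer form TGAATGNA, which contains TGAATG, occurred in 3.2% of windows, the ETS letters CCGGAA in 12% and the AP-1 letters TGANTCA in 6.75%, and none of these 3 was in a window of a member. These matches are letters only. The genes themselves lie, on GRCm38, at chr10:99263231-99267489 (Dusp6, plus strand), chr16:22381309-22439719 (Etv5, minus), chr8:34807297-34819894 (Dusp4, plus), chr11:101769742-101785371 (Etv4, minus), chr14:105891947-105896819 (Spry2, minus) and chr3:37639947-37644598 (Spry1, plus). The shorter form was searched after the longer one gave no match. Forms of the octamer that begin with other letters were not searched. Bases without capitals, in these or the other members' windows, may therefore hold one.

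In the Ras tumours, Dusp6 was the most abundant of the 10 mRNAs per length of exon and Etv1 the least. Dusp6 averaged 104.7 ± 32.9 CPM per kb (CPM, counts scaled to library size; kb, kilobase of exon; SD, n = 4) in PLX3397 tumours and 126.6 ± 52.5 in vehicle tumours (SD, n = 4). Dusp4 was next, at 50.9 ± 22.1 CPM per kb in PLX3397 tumours and 45.1 ± 12.9 in vehicle tumours. No library of Dusp4 reached the lowest library of Dusp6 in the same group. From Dusp4 down to Spry1 the ranges of neighbouring genes overlapped in both groups. Etv1 stood at 4.54 ± 0.89 CPM per kb in PLX3397 tumours and 3.93 ± 0.78 in vehicle tumours, and its highest library lay below the lowest Spry1 library of either group. This order depends on exon length, 13.296 kb for Etv1. In plain CPM, Spry1 lay below Etv1 in PLX3397 tumours (55.2 against 60.4) and above it in vehicle tumours (58.3 against 52.2). Single-cell counts, not divided by length, gave another order. For each Spry2 count there were 0.84 of Etv1 and 0.23 of Dusp4 in 10x, and 0.28 and 0.084 in Drop-seq. Dusp4 was the lowest member in both. Spry1 overlaps an antisense transcript, Gm42922, and Spry4 overlaps Gm27369 and Gm27804. Whether counting used the strand is not given in the sources used here, so their reads cannot be told apart.

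No shift of the feedback genes was detected in Ras tumours under PLX3397. None of the 10 passed the test, and none passed even at an unadjusted p under 0.05 (edgeR's quasi-likelihood test, Benjamini-Hochberg over 18366 genes, called at an adjusted p under 0.05). The background was equally empty: 0% of the tested genes were called, 3.53% had an unadjusted p under 0.05, and DESeq2 called 178 genes but no member. The members' log2 fold changes ran from -0.27 to 0.21 with a median of -0.05, against 0.00 over all genes tested. In counts simulated for this design, edgeR recovered 14.9% of 2-fold changes, so shifts of that size or smaller could be missed. For all 10 genes the groups overlapped, where 0.446% of tested genes had every PLX3397 tumour above every vehicle tumour and 2.09% every one below. In tumour tissue, fewer cells of a type and less RNA per cell cannot be told apart.

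**Figure D1:**
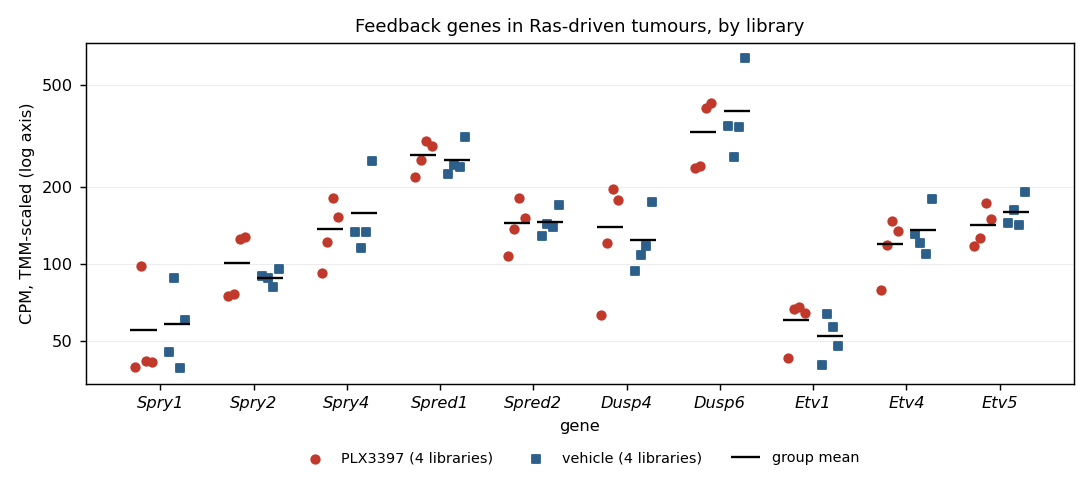
Abundance of the 10 feedback genes in each Ras-driven tumour (CPM after TMM scaling, log axis), with PLX3397 libraries as red circles, vehicle libraries as blue squares and group means as black bars. The 2 groups overlap for every gene, and single libraries such as the vehicle tumour at 636 CPM for Dusp6 stand apart from the rest of their group.

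Dusp6, the cytoplasmic ERK phosphatase, measured 238, 240.2, 408 and 426 CPM in PLX3397 tumours 1 to 4. It measured 346, 261, 344 and 636 CPM in vehicle tumours 1 to 4. The low pair of PLX3397 tumours lay below all 4 vehicle tumours and the high pair lay among them, giving a log2 fold of -0.27 (SE 0.32, adjusted p = 0.9998 by edgeR). Spry4, a Sprouty inhibitor of the pathway, measured 91.8, 122, 180.3 and 152 CPM in PLX3397 tumours and 134, 116, 133 and 252 CPM in vehicle tumours. Its highest value came from the same vehicle tumour, 4, as that of Dusp6. Without vehicle tumour 4, the log2 folds of Spry4, Spred2, Dusp6 and Etv4 changed sign, to 0.12, 0.10, 0.07 and 0.02.

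Among the ETS factors, Etv5 measured 118, 126, 174 and 149.8 CPM in PLX3397 tumours 1 to 4, against 144, 162, 142 and 191 CPM in vehicle tumours. Etv4 measured 79.2, 119, 148 and 135 CPM in PLX3397 tumours, against 131, 121, 109 and 179 CPM in vehicle tumours. For both genes PLX3397 tumour 1 was the lowest of all 8 libraries and vehicle tumour 4 the highest. Etv1 averaged 60.4 ± 11.8 CPM in PLX3397 tumours and 52.2 ± 10.4 in vehicle tumours, the largest positive log2 fold of the 10 (0.21, SE 0.20, adjusted p = 0.9998 by edgeR). The nuclear phosphatase Dusp4 had the largest ratio of highest to lowest library over all 8 tumours, though not within the vehicle tumours alone. It ran from 63.1 to 197 CPM in PLX3397 tumours and from 93.7 to 174 CPM in vehicle tumours.

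Spry1 followed another order. It measured 39.6, 97.8, 41.9 and 41.4 CPM in PLX3397 tumours and 45.2, 88.2, 39.1 and 60.5 CPM in vehicle tumours, so that tumour 2 of each arm was the highest. Spry2, the Sprouty member best known as an inhibitor downstream of FGF and EGF receptors, measured 75.0, 76.7, 125 and 127 CPM in PLX3397 tumours and 89.6, 87.8, 81.1 and 95.2 CPM in vehicle tumours. The vehicle values of Spry2 all lay between the low and the high pair of PLX3397 tumours. The inhibitor Spred1 had the smallest ratio of highest to lowest library over all 8 tumours, though not within the vehicle tumours alone, and ran from 219 to 301 CPM in PLX3397 tumours and from 225 to 312 CPM in vehicle tumours. Spred2 ran from 107 to 181 CPM in PLX3397 tumours and from 128 to 170.5 CPM in vehicle tumours.

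Several of these genes went up and down together from tumour to tumour. Of 45 member pairs, 16 (35.6%) had a Pearson correlation of log2 CPM above 0.8 over the 8 libraries. Of all pairs of tested genes, 6.26% did. A correlation above 0 was found in 41 of the 45 pairs, and in 49.9% of all pairs. The 8 points share the treatment arms and the mix of cells in each tumour. In an exact permutation test of Pearson's r adjusted over 65 relations, 15 pairs passed, all of them positive. Spry4 with Dusp6 reached r = 0.94 and rho = 0.95 (exact permutation p = 0.000322 and 0.00114, n = 8, adjusted p = 0.00806 and 0.0424), and r stayed at 0.85 without the 2 tumours farthest from the median. The 2 tumours left out were chosen anew for each pair, by the second gene named. Spred1 with Dusp4 reached r = 0.94 (rho 0.91, r = 0.96 without the 2 farthest for Dusp4). Spred2 with Dusp4 reached r = 0.95 (rho 0.88, r = 0.86 without the same 2 as for Spred1). Etv4 with Etv5 had r = 0.88 and rho = 0.91, and r was 0.62 when the 2 farthest were left out.

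Spry1 and Etv1 stood outside this pattern. Spry1 had r = -0.34 with Spry2 and -0.30 with Dusp6, and Etv1 had r = -0.08 with Dusp6. No pair with Spry1, Etv1 or Spry2 passed on Pearson's r, and the closest was Spry2 with Dusp4 (r = 0.80, exact permutation, adjusted p = 0.0544). On rank correlation, Spry2 did pass with Dusp6 (rho = 0.905, exact permutation, adjusted p = 0.0424) and with Etv4 (rho = 0.881, adjusted p = 0.0471). Spry4 and Dusp6 also had r above 0.8 with 15.1% and 15% of the other tested genes, against 2.25% for Spry2, 1.19% for Spry1 and 0.86% for Etv1. The count of pairs that passed was 0 without PLX3397 tumour 1, 0 without PLX3397 tumour 3, 4 without PLX3397 tumour 4 and 1 without vehicle tumour 4, and between 7 and 11 without any other tumour. Groups of 4 tumours are too small for a correlation within each arm.

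**Figure D2:**
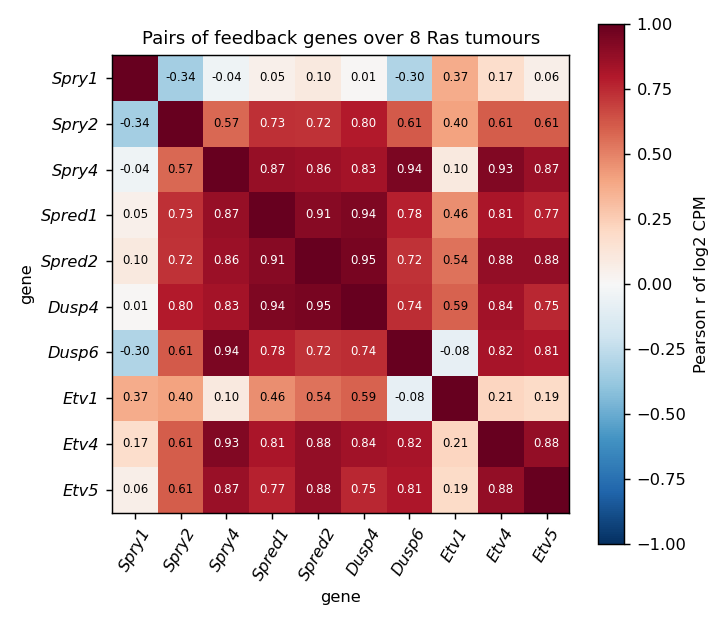
Pearson correlation of log2 CPM between each pair of feedback genes over the 8 Ras tumour libraries, on a colour scale that runs between -1 and 1, with r printed in each cell. Spry4, Spred1, Spred2, Dusp4, Dusp6, Etv4 and Etv5 form a block of high values, while Spry1 and Etv1 lie between -0.34 and 0.59 with the others.

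The tumours that were low or high for the block also differed in markers of normal brain and of dividing cells. The summed neuron markers (8 of 8 genes in the table, none at 0) were 3557, 1286, 1172 and 1230 CPM in PLX3397 tumours 1 to 4 and 1005, 3307, 1926 and 221.7 CPM in vehicle tumours 1 to 4. The 8 oligodendrocyte markers summed to 1656, 750.6, 326.5 and 539.9 CPM in PLX3397 tumours and 423.4, 904.1, 716.6 and 61.1 CPM in vehicle tumours, where 1 of the 8 was at 0 in tumour 4. PLX3397 tumour 1, lowest for Etv4 and Etv5, was the highest for both lists, and vehicle tumour 4 the lowest. The 8 genes of dividing cells summed to 568.6, 694.5, 1149 and 1008 CPM in PLX3397 tumours 1 to 4. In vehicle tumours 1 to 4 they summed to 876.8, 667.1, 943.3 and 1185 CPM. PLX3397 tumour 1 was the lowest for these genes and vehicle tumour 4 the highest. The mean log2 level of the 12 neural lineage markers correlated with Spry4 at r = -0.89 and rho = -0.83 (exact permutation p = 0.00201 and 0.0154, n = 8, adjusted p = 0.0218 and 0.0714). Without the 2 farthest tumours r was -0.53. These markers also name the neural-lineage-like cells of the single-cell libraries, so they are not a list of normal brain. Of 20 relations of a member to this list or to the macrophage and microglia list, 3 passed on Pearson's r. Macrophage and microglia markers (15 genes) summed to between 348 and 1710 CPM in PLX3397 tumours and between 1591 and 3307 CPM in vehicle tumours. The part of these markers in the members' values was not tested.

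The rest of the pathway gave no call in the Ras tumours either. Of 21 core genes from receptor adaptors to ERK, 0 passed, with a median log2 fold of 0.00. Among those with the smallest p were Araf (0.13), Map2k1 (0.14) and Map2k2 (-0.08). Of 24 other feedback genes and ERK targets, 0 passed, with a median of -0.15. Fos, an immediate early gene, was higher in every PLX3397 tumour than in any vehicle tumour (23.5 against 14.5 CPM, log2 fold 0.70, SE 0.19) but did not pass (adjusted p = 0.646 by edgeR). Ier2 (-0.62), Ier3 (0.37) and Dusp16 (-0.23) followed. Of 13 receptors, 0 passed, with a median of 0.14, and Csf1r, the drug's target and itself a macrophage marker, had the smallest p (87.1 against 250.5 CPM, log2 fold -1.52, SE 0.57, adjusted p = 0.9998 by edgeR). Pdgfra (0.44), Erbb2 (0.22) and Fgfr2 (0.76) were next.

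In CD11b-positive cells of PDGFB tumours, 4 of the 10 genes changed after 3 days of PLX3397, and not all in the same direction. Spry2 rose 4.15-fold, Spry4 4.44-fold and Etv4 2.84-fold, and Etv5 fell to 0.51 of the vehicle level. In all, 6.35% of 15052 tested genes were called, 4.57% higher and 1.78% lower (edgeR's quasi-likelihood test), and 29.3% had an unadjusted p under 0.05, as did 6 members. For 6 members both PLX3397 libraries lay above the vehicle library and for 3 below, where 41.6% and 42% of tested genes did. The median log2 fold of the 10 was 0.57, against 0.01 over all genes tested. With 2 libraries against 1, the fit had 1 residual degree of freedom, and the vehicle library was taken to vary like the PLX3397 libraries.

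**Figure D3:**
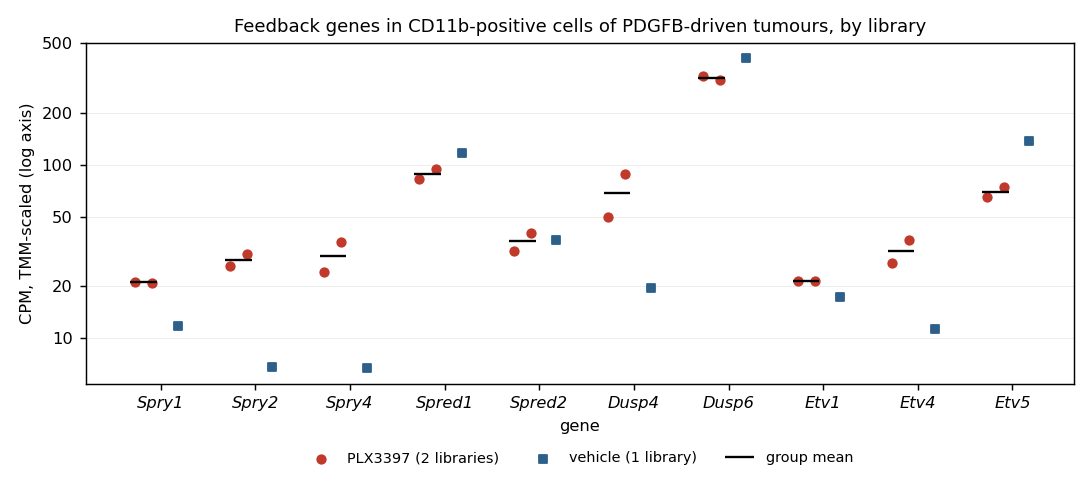
Abundance of the 10 feedback genes in CD11b-positive cells (CPM after TMM scaling, log axis), with the 2 PLX3397 libraries as red circles and their mean as a black bar, and the single vehicle library as a blue square. Spry2, Spry4 and Etv4 sit above the vehicle library and Etv5 below it, while Dusp6 remains above 300 CPM in all 3 libraries.

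Spry2 measured 26.3 and 30.5 CPM in PLX3397 cells, against 6.84 CPM in vehicle cells (log2 fold 2.05, SE 0.22, adjusted p = 0.0345 by edgeR). Spry4 measured 24.0 and 35.7 CPM in PLX3397 cells, against 6.71 CPM in vehicle cells (2.15, SE 0.33, adjusted p = 0.0437 by edgeR). Etv4 measured 27.1 and 36.9 CPM in PLX3397 cells, against 11.3 CPM in vehicle cells (1.504, SE 0.27, adjusted p = 0.0491 by edgeR). These 3 were among the scarcest members in the vehicle library, at 1.41 to 3.64 CPM per kb, where Dusp6 stood at 131.4 CPM per kb.

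Etv5 measured 65.1 and 74.1 CPM in PLX3397 cells, against 136.8 CPM in vehicle cells (log2 fold -0.97, SE 0.16, adjusted p = 0.0437 by edgeR). It was thus called in the direction opposite to its close relative Etv4. Dusp4 measured 50.03 and 87.9 CPM in PLX3397 cells, against 19.6 CPM in vehicle cells, and missed the threshold (1.82, SE 0.39, adjusted p = 0.0675 by edgeR), while DESeq2 gave it an adjusted p of 9.265e-06. Spry1 measured 21.2 and 20.8 CPM in PLX3397 cells, against 11.7 CPM in vehicle cells (0.84, adjusted p = 0.0705 by edgeR). Dusp6 measured 327 and 308 CPM in PLX3397 cells, against 411 CPM in vehicle cells (-0.37, adjusted p = 0.218 by edgeR). Spred1 had a log2 fold of -0.41 and Etv1 of 0.30, and for Spred2 (-0.03) the vehicle value lay between the PLX3397 values. Without PLX3397 library 2, the log2 folds of Spry4 and Dusp4 were 1.77 and 1.34, and no test was possible with 1 library on each side.

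Markers of cells other than myeloid cells also differed between the libraries, and not all in the same direction. The 11 of 12 neural lineage markers in the table, none at 0 in any library, summed to 386 and 423.6 CPM in PLX3397 cells and 116.5 CPM in vehicle cells. The 8 neuron markers summed to 108.5 and 115.1 CPM in PLX3397 cells and 24.7 CPM in vehicle cells, where 1 of 8 was at 0. The 7 fibroblast markers, none at 0, summed to 600.1 and 1066 CPM in PLX3397 cells and 158.9 CPM in vehicle cells. Lower in PLX3397 cells were the NK cell markers (12.4 and 18.5 CPM, against 25.4 CPM in vehicle cells). The erythroid markers were also lower (2.47 and 15.3 CPM, against 30.1 CPM in vehicle cells). Macrophage and microglia markers, 15 of 15 detected, summed to 15600 and 11620 CPM in PLX3397 cells and 14290 CPM in vehicle cells. The 8 genes of dividing cells summed to 245 and 361.6 CPM in PLX3397 cells and 1091 CPM in vehicle cells. The part of these markers in the members' changes was not tested.

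Of 13 receptors at the head of the pathway, 6 rose and 0 fell, with a median log2 fold of 2.20. Those with the smallest p were Pdgfra, also a fibroblast marker here (51.1 against 9.18 CPM, 2.48), Fgfr1 (163 against 34.0 CPM, 2.26), Ntrk2 (37.7 against 4.41 CPM, 3.10) and Fgfr2 (5.29 against 0.53 CPM, 3.30). Of 21 core genes, 1 rose, the docking protein gene Gab1 (47.0 against 23.4 CPM, 1.01, adjusted p = 0.0456 by edgeR), and 0 fell, with a median of -0.04. Braf (0.34) and Frs2 (0.24) did not pass. Of 24 other feedback genes and ERK targets, 0 passed and the median was 0.20, though 8 had an unadjusted p under 0.05. The smallest p belonged to Il17rd, also known as Sef (2.43), Fosl1 (1.82), Myc (-0.82) and Spred3 (1.40).

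Between the lines, Dusp4 showed the widest gap of the 10. It measured 313 and 46.7 CPM in Ras lines 1 and 2, against 7.16, 8.51 and 11.3 CPM in PDGF lines 1 to 3 (log2 fold 4.33, SE 0.84). Both Ras lines lay above all PDGF lines, but the 2 Ras lines differed from each other more than the PDGF lines did. The edgeR test gave an unadjusted p of 0.00382 and an adjusted p of 0.212, so Dusp4 was not called, while DESeq2 gave an adjusted p of 2.894e-05. In this comparison edgeR called 0% of 17475 genes and 0 of the 10 members, with 16.3% of genes and 2 members (Dusp4 and Spred2) at an unadjusted p under 0.05. DESeq2 called 2035 genes, and edgeR without Ras line 2 called 2111, with Dusp4 and Etv1 among them. The log2 fold of Etv1 was 1.04 with all lines, 1.59 without Ras line 2 and 0.07 without Ras line 1. In counts simulated for the line design, DESeq2 also called 139 unchanged genes and edgeR 0.

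**Figure D4:**
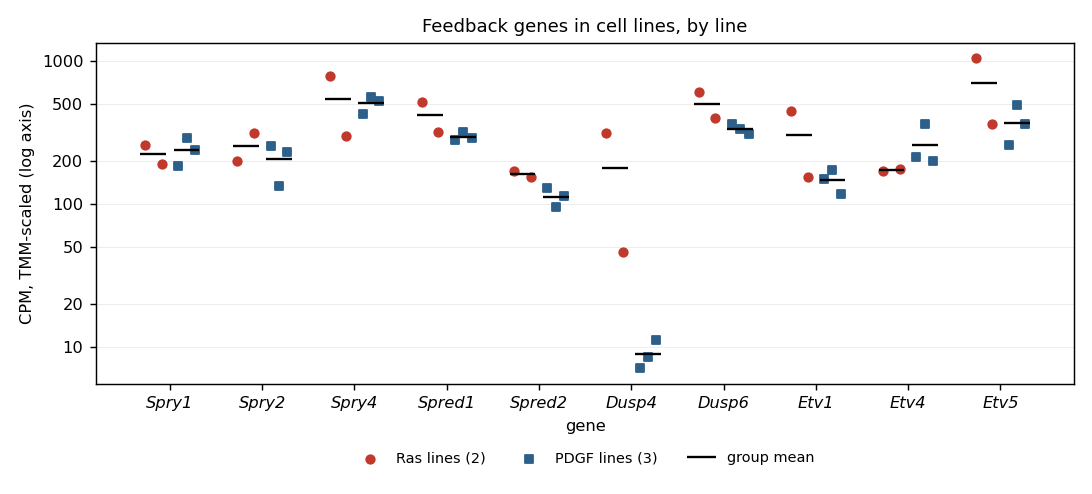
Abundance of the 10 feedback genes in each cell line (CPM after TMM scaling, log axis), with Ras lines as red circles, PDGF lines as blue squares and group means as black bars. Dusp4 separates the groups most widely, and Ras line 1 (the left circle of each pair) is far above Ras line 2 for Dusp4, Etv5, Etv1 and Spry4.

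Spred2 measured 171 and 155 CPM in Ras lines, against 130.2, 95.4 and 114 CPM in PDGF lines (log2 fold 0.53, unadjusted p = 0.0447, adjusted p = 0.299 by edgeR). Dusp6 measured 609.7 and 399 CPM in Ras lines, against 364, 333 and 308 CPM in PDGF lines. Spred1 measured 518 and 321.3 CPM in Ras lines, against 279, 321.1 and 290.0 CPM in PDGF lines. Etv4 was the one member with every Ras line lower, at 169.5 and 176 CPM against 213, 361 and 202 CPM in PDGF lines (log2 fold -0.58). In all, 4 members had every Ras line above every PDGF line and 1 had every Ras line below, where 17.9% and 20.6% of all tested genes did.

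The other 5 members overlapped the PDGF lines. Etv5 measured 1046 and 363 CPM in Ras lines, against 258, 493 and 362 CPM in PDGF lines. Spry4 measured 787 and 299 CPM in Ras lines, against 425, 565 and 527 CPM in PDGF lines. Etv1 measured 450.3 and 155 CPM in Ras lines, against 150.0, 174 and 118 CPM in PDGF lines. Spry1 (257 and 191 CPM in Ras lines) and Spry2 (199 and 314 CPM in Ras lines) overlapped the PDGF lines, which spanned 185 to 289 CPM and 134 to 255 CPM. The 12 neural lineage markers summed to 2089 CPM in Ras line 1 and 7879 CPM in Ras line 2, against 7838 to 9055 CPM in PDGF lines, and the part of this difference in the members' values was not tested. Without Ras line 1, the log2 fold of Dusp4 was 2.38 and those of Spry4 and Etv5 changed sign, to -0.76 and -0.03.

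The lists gave no call between the lines. Of 21 core genes, 4 had an unadjusted p under 0.05: Rasa1 (0.68), Hras (119 against 50.8 CPM, 1.22), Frs2 (0.89) and Gab1 (-1.49). Among 24 other feedback genes and ERK targets, Epha2 (21.7 against 0.645 CPM, 5.07), Egr2 (-0.96), Egr1 (93.7 against 810.4 CPM, -3.11) and Dusp5 (1.59) had the smallest p. Among 12 receptors tested, these were Fgfr1 (352 against 98.7 CPM, 1.84), Pdgfrb (65.5 against 0.0876 CPM), Met (4.42) and Erbb3 (-5.18). The smallest adjusted p over the 3 lists was 0.204. The medians were 0.07, 0.29 and 0.49, against 0.51 for the members and 0.01 for all genes tested.

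In both single-cell libraries the feedback genes were higher in neural-lineage-like than in macrophage-like cells. The narrowest ratio between these classes belonged to Dusp6 in 10x and to Spred1 in Drop-seq. Cells that could not be named also held them, and 10x cluster 9, which stayed unnamed, exceeded the neural-lineage-like class for Dusp4, Spred1, Dusp6 and Spred2. The 10x library held 59300288 unique molecular identifiers (UMIs) in 4384 barcodes, of which 3320 were kept (median 8351 UMIs), and the Drop-seq library 9668449 in 5000 barcodes, of which 4901 were kept (median 1396 UMIs). Their barcodes differ in length (16 bases in 10x and 12 in Drop-seq), so none could be shared. In 10x, 4 clusters (1408 cells) were neural-lineage-like and 2 (538 cells) macrophage-like by their markers. In Drop-seq, 5 clusters (4618 cells) were neural-lineage-like and 1 (181 cells) macrophage-like. With 1 library each there was no test, and the 95% exact intervals below cover counting error only.

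**Figure D5:**
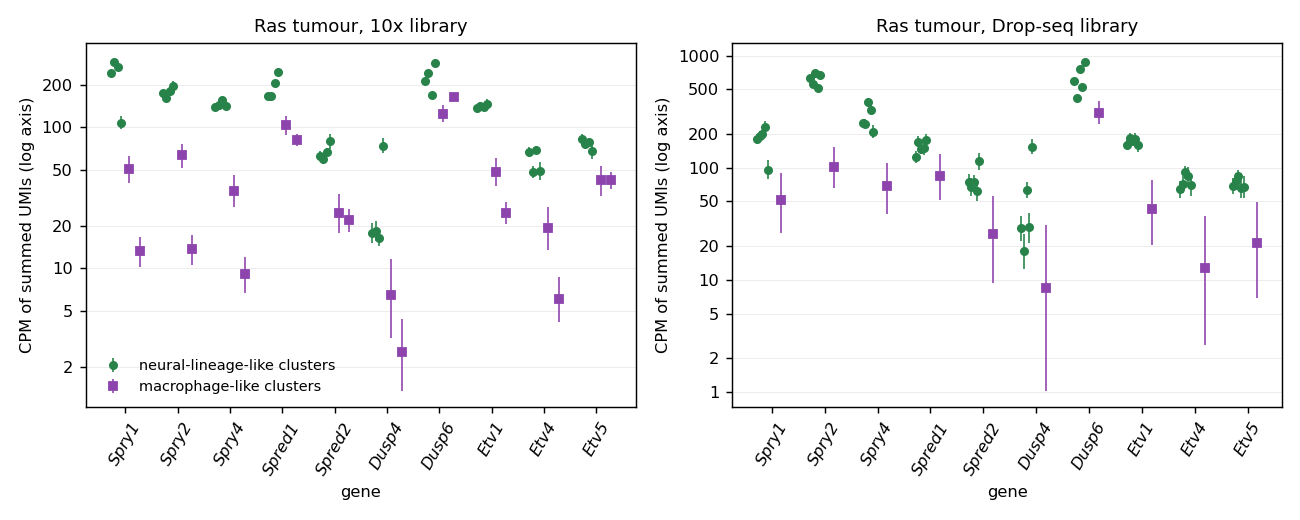
Abundance of the 10 feedback genes in the clusters of the 10x library (left) and the Drop-seq library (right), as CPM of summed UMIs on a log axis, with neural-lineage-like clusters as green circles, macrophage-like clusters as purple squares and bars for the 95% exact Poisson interval. For all 10 genes every neural-lineage-like cluster lies above every macrophage-like cluster, and the Dusp6 values of the 10x macrophage-like clusters (125 and 163 CPM) approach those of the neural-lineage-like clusters (168 to 284 CPM).

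All 10 genes had a higher CPM in neural-lineage-like than in macrophage-like cells in both libraries. Over all genes with at least 100 UMIs, 73.6% did so in 10x and 72.2% in Drop-seq, so the direction alone is common. A ratio above 2 was reached by 8 members in 10x and 9 in Drop-seq, where 38.3% and 33.6% of genes reached it. A ratio above 5 was reached by 5 members in 10x, where 15.9% of genes reached it, and by 3 in Drop-seq, where 9.83% did. Spry1 had the widest 10x ratio, 247.8 CPM in neural-lineage-like cells against 22.5 CPM in macrophage-like cells (11-fold, interval 9.39 to 13.0), and 3.64-fold (2.08 to 7.06) in Drop-seq. Spry4 was at 147 against 15.7 CPM in 10x (9.39-fold, 7.75 to 11.5) and 296 against 68.0 CPM in Drop-seq (4.36-fold). Spry2 was at 175 against 26.0 CPM in 10x (6.71-fold, 5.78 to 7.84) and 623 against 102 CPM in Drop-seq (6.11-fold).

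The ratios of Etv4 and Etv5 lay apart in 10x, while their counting intervals overlapped in Drop-seq. Etv4 was at 61.4 CPM in neural-lineage-like cells against 9.46 CPM in macrophage-like cells in 10x (6.49-fold, 5.06 to 8.45), and 77.2 against 12.7 CPM in Drop-seq (6.06-fold, 2.07 to 29.5). Etv5 was at 77.5 against 42.0 CPM in 10x (1.85-fold, 1.63 to 2.09), and 74.0 against 21.2 CPM in Drop-seq (3.48-fold, 1.48 to 10.8). Dusp6 had the narrowest 10x ratio, 208 against 154 CPM (1.36-fold, 1.27 to 1.45), and 625.5 against 310.1 CPM in Drop-seq (2.02-fold). Spred1 was at 189.5 against 86.2 CPM in 10x (2.2-fold) and 150.8 against 85.0 CPM in Drop-seq (1.77-fold, 1.14 to 2.91), the narrowest ratio there. Spred2 was at 65.2 against 22.6 CPM in 10x (2.88-fold). Etv1 had 139 against 30.6 CPM (4.55-fold).

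Free RNA puts some UMIs of every gene into every droplet, so red blood cell-like barcodes (170 in 10x, median 2326.5 UMIs) served as a level for cells that should lack these genes. With each cell thinned to 2000 UMIs, Dusp6 had a UMI in 31.7% of neural-lineage-like, 24.1% of macrophage-like and 5.50% of erythroid cells. Without thinning the shares were 82.5%, 55.2% and 14.7%, at median depths of 19383, 7265 and 2326.5 UMIs. Spry2 had a UMI in 29.7% of thinned neural-lineage-like, 6.94% of macrophage-like and 6.59% of erythroid cells (81.8%, 16.5% and 15.9% unthinned). Spry1 and Spry4 were at 3.47% and 3.01% in thinned macrophage-like cells and 8.79% and 3.30% in the 91 thinned erythroid cells. The classes differed in depth before thinning, so the erythroid share need not be the free RNA level of macrophage-like cells. The macrophage-like clusters also differed, with Spry4 in 6.11% of thinned cells of cluster 2 and 0.79% of cluster 6. Spry2 was in 11.1% and 3.97% of them, and Spry1 in 3.9% and 3.2%. Etv5 was at 8.10% and Spred1 at 19.0% in thinned macrophage-like cells, against 4.40% and 7.69% in erythroid cells. Thinning left out 66, 106 and 79 cells of the 3 classes, and the 6 erythroid markers made up 704100 CPM of the erythroid barcodes.

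The balance between members varied among clusters. For each Spry2 UMI there were 1.19 Dusp6 UMIs in neural-lineage-like cells, 0.85 in erythroid cells, 1.97 in macrophage-like cluster 2 and 12 in macrophage-like cluster 6. Neutrophil-like cells had 2.05 and unnamed cluster 9 had 2.62, so the ratio did not follow the classes. The ratio of cluster 6 divides by a low Spry2 level. The thinned share of Spry2 was 3.97% in cluster 6 and 11.1% in cluster 2, against 6.59% in erythroid cells. No counting interval is given for these ratios. Cluster 2 was led by microglia genes such as Tmem119, and cluster 6 by Chil3, Rgs1 and class II genes such as Cd74. Spry2 was at 63.1 CPM (51.7 to 76.3) in cluster 2 and 13.6 CPM in cluster 6, and Dusp6 at 125 CPM (108.3 to 142.5) and 163 CPM (152 to 175). Median depth was 2703 UMIs in cluster 2 and 14284 in cluster 6. Neutrophil-like cells (80 barcodes) held 166 CPM of Dusp6 (119 to 225) and 80.8 CPM of Spry2.

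Within the neural-lineage-like class, the cluster with the most Dusp4 held the least Spry1 in each library. This order did not hold among the other 10x clusters, where cluster 3 held the most of both genes. In 10x, cluster 5 held 73.9 CPM of Dusp4 (65.4 to 83.3) and 108 CPM of Spry1, while clusters 0, 3 and 4 held 16.3 to 18.5 CPM of Dusp4 and 239.8 to 287 CPM of Spry1. Cluster 5 also had the highest Dusp6 (284 CPM) and Spred1 (247 CPM) of the 4. The unnamed cluster 9, led by Lcn2, Nefl and Areg, held 94.3 CPM of Dusp4 (88.0 to 101), 133.5 CPM of Spry1, 319 CPM of Spred1, 273 CPM of Dusp6 and 85.6 CPM of Spred2. Over all unnamed 10x clusters there were 903 Dusp4 UMIs, beside 821 in the neural-lineage-like clusters. In Drop-seq, cluster 4, led by Hspb1, Hspa1a and Areg, held 154 CPM of Dusp4 (132 to 179) and 96.1 CPM of Spry1 (78.9 to 115.9). The other Drop-seq neural-lineage-like clusters held 18.2 to 63.4 CPM of Dusp4 and 179.5 to 232 CPM of Spry1. Median depth was 5426.5 UMIs in 10x cluster 5, against 17938 to 29707 in clusters 0, 3 and 4, and the part of this difference in the values was not tested. Over the same 4 clusters Spry2 ran from 159.7 to 195.9 CPM, Spry4 from 139.0 to 156 CPM, Etv1 from 136 to 146 CPM and Etv5 from 67.3 to 82.8 CPM.

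Across 12 clusters of at least 30 cells in 10x, the genes whose log2(CPM + 1) followed Spry2 most closely among 9600 genes were Kctd3 (r = 0.99), Strbp (0.99) and Anks1b (0.99). For Dusp6 they were Ensa (0.96), Fnbp1 (0.94) and Ftsj3 (0.92), and for Etv5 Snx27 (0.96), Rufy3 (0.92) and Cnp (0.91). No gene stood in more than 1 of these lists. The clusters share a library and differ in depth, so these values only describe likeness.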

How the data were processed

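Bulk RNA was measured in 16 libraries and single cells in 2. The authors deposited raw counts per gene symbol and UMI counts per gene and barcode. The submitters' processing notes name STAR 2.6.1e and featureCounts 1.6.2 beside Cell Ranger, and also Trim Galore 0.4.2, FastQC 0.11.7 and cutadapt 1.9.1, and build GRCm38. The role of each is not given in the sources used here. Totals were 31262168 to 35905408 counts in Ras tumours, 26777183 to 30874763 in CD11b libraries and 32000682 to 35910674 in lines. Of counts between 1 and 10, 62.8% to 69.4% were even in tumours and lines and 39.9% to 41.9% in CD11b libraries. Rows bearing a date in place of a gene (27 in the tumour and 27 in the line table, with up to 0.281% and 0.36% of a library) and 1 blank row among the CD11b counts were not tested. The line table's 5 columns of other samples were not used.

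The members and lists were chosen with earlier results of these data known. Named genes were all 10 members, up to 4 genes per list and comparison with the smallest adjusted p, and the 3 genes most like Spry2, Dusp6 and Etv5. Some genes that this rule names are not reported here. Each comparison was fitted alone in edgeR 4.0.16 (TMM, filterByExpr, robust quasi-likelihood, R 4.3.3), with DESeq2 1.42.0, RLE scaling, no filter, each library left out and a replicate block as alternatives. On simulated counts with known changes, edgeR recovered 56.7% of 4-fold changes in the Ras tumour design, 82.1% in the CD11b design and 0 of 67 in the line design. CPM are counts per TMM-scaled library size. The scaling was done within each comparison, so bulk CPM of different comparisons share no common scale. Correlations used log2 CPM (prior count 2) and exact permutation. Barcodes needed 500 UMIs and 300 genes (10x) or 300 and 200 (Drop-seq), with at most 20% mitochondrial UMIs. No doublet caller was run. Cells were clustered in scanpy 1.11.5 (2000 variable genes without the members and lists, 30 components, 15 neighbours, Leiden resolution 0.5). A cluster was named when at least 3 markers, and at least 50% of those detected, reached 0.25 of their level in the highest cluster and no other class had more markers among its 10 leading genes. A cluster with a median depth far below that of its library, and no marker of its class among those 10 genes, also stayed unnamed. This left out 10x cluster 7 (514 cells, median 902.5 UMIs against 8351), where 11 of 12 neural lineage markers reached that level. These rules were set after seeing the data, and the clusters they did not name stayed unnamed (1091 cells in 10x, 80 in Drop-seq). Coordinates and exon lengths come from GENCODE M21 on GRCm38.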

Additional observations from a re-analysis of the deposited data

Results flagged for a closer look

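In groups of 4 Ras tumours, 3 of 20 gene and group combinations held a library whose gap to its nearest neighbour, divided by the range of the group, exceeded Dixon's 95% critical value. Chance flags about 1 in 20 such groups. Spry1 was highest in PLX3397 tumour 2, at 97.8 CPM, where the other PLX3397 tumours held 39.6 to 41.9 CPM. Etv1 was lowest in PLX3397 tumour 1, at 42.9 CPM, where the others held 64.1 to 67.9 CPM. Spry4 was highest in vehicle tumour 4, at 252 CPM, where the others held 116 to 134 CPM.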

How the results depend on the processing

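In the Ras tumours, 106 of the members' log2 folds under the alternatives kept their direction and 14 changed sign, with 0 members called under any alternative. Spred2 changed sign with RLE size factors (0.0117) and DESeq2 (0.0104). With each library left out in turn, the log2 folds ran from -0.51 to 0.19 for Spry1, -0.38 to 0.12 for Spry4, -0.0056 to 0.20 for Spred1, -0.14 to 0.11 for Spred2, -0.0355 to 0.42 for Dusp4, -0.43 to 0.0735 for Dusp6 and -0.29 to 0.021 for Etv4. In CD11b cells the same 4 members were called with RLE factors and with no filter, and DESeq2 added Dusp4. Spred2 ran from -0.20 to 0.14 there with a PLX3397 library left out, a value with no test, and the lone vehicle library could not be left out. Between lines, the same values ran from -0.32 to 0.0914 for Spry1, -0.0807 to 0.60 for Spry2, -0.76 to 0.62 for Spry4 and -0.0296 to 1.47 for Etv5. The number of members called was 1 with DESeq2 and 0 to 2 with a line left out. Member pairs that passed numbered 5 without TMM scaling and 0 to 11 with a tumour left out, against 15. The cause was not tested, and fewer samples raise the smallest p a permutation can give. Genes called in CD11b cells numbered 956, against 1980 with DESeq2 and 1907 with no filter. In tumours they numbered 0, against 178 with DESeq2 and 1 with no filter, and between lines 0, against 2035, 1 and, without Ras line 2, 2111.

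Libraries of the same number did not pair. Deviations from the group means correlated at 0.01, 0.14, -0.45 and 0.55 for tumours 1 to 4 and at -0.16 and -0.12 for lines 1 and 2, and not every sample correlated best with its own number. With a replicate block, 0 members were called in tumours and 0 between lines, 690 and 1110 genes had an unadjusted p under 0.05, and Spry4 changed sign between lines (-0.0151). CD11b groups shared 1 number, so no block could be fitted there.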
